A study of Homo sapiens with 28 samples.

Results

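Senescent IMR-90 ER:Ras fibroblasts held phosphorylated c-JUN (p-c-JUN) at 10347 regions that had no p-c-JUN peak in proliferating cells and carried no peak of the acetylation mark H3K27Ac in 6 lists from the same states. Peaks of 4 p-c-JUN lists on chromosomes 1 to 22 and X, 2 from proliferating (Pro) and 2 from senescent (Sen) cells, were joined wherever they overlapped by at least 1 bp. A region was taken when both Sen lists and neither Pro list had a peak there, and when it overlapped no peak in 2 H3K27Ac Pro lists, 4 H3K27Ac Sen lists or 2 FOXF1 Sen lists. These 8 lists and the 4 p-c-JUN lists chose the regions, so their values there are description only. The regions were 34.7% of the 29856 p-c-JUN regions gained in senescence, which in turn were 28.0% of all 106528 joined regions.

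c-JUN is a subunit of AP-1, a transcription factor that binds DNA as a pair of JUN and FOS family proteins. Stress kinases phosphorylate c-JUN in its activation domain, and AP-1 is known as a factor that can bind closed chromatin and prepare enhancers in senescent fibroblasts. H3K27Ac, laid down by the acetyltransferases p300 and CBP, marks active enhancers and promoters. FOXF1 and FOXF2 are forkhead transcription factors of lung mesenchyme, the tissue from which IMR-90 fetal lung fibroblasts derive.

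Chromatin was profiled by CUT&RUN, in which an antibody guides a nuclease that releases the DNA around its target. All cells carried ER:Ras, an oncogenic Ras fused to an estrogen receptor domain and switched on by 4-hydroxytamoxifen, given per the labels at 100 nM for 6 days. The groups used were Pro, Sen, Sen with siRNA against FOXF1 and FOXF2 (siFOXF1/2), Sen with JUN family knockdown (titled cJUN/JUND-KD), and an experiment of its own with Sen control cells and Sen cells given sip300/CBP. The labels conflict in that Pro samples carry the same tamoxifen and senescent cell tags as Sen samples, and the JUN knockdown is also tagged for JUNB. Nothing in them says that the 2 libraries of a group came from separate cultures. H3K27Ac Sen replicates 3 and 4 and the JUN knockdown libraries came from a second deposit, so that knockdown cannot be told apart from deposit when set against the others.

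The 28 lists held from 133 to 93443 peaks, and how many reads were mapped is not known. The p-c-JUN Pro lists had 24808 and 32136 peaks, the Sen lists 70177 and 93443, and the siFOXF1/2 lists 75005 and 86110. The number of regions went with list length: with the 4 p-c-JUN lists limited to their 24808 best peaks, 948 regions met the rule in place of 10347. Leaving out Sen replicate 1 or 2, so that 1 Sen list decided, gave 26865 and 15980. Why the Sen lists were longer than the Pro lists was not tested, and such a limit takes out gained Sen peaks by construction.

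Over all 106528 joined p-c-JUN regions, 35194 (33.0%) had neither H3K27Ac nor FOXF1, close to the 34.7% of gained regions. Of the 35194, 21630 had a peak in 1 Sen list and no Pro list, so the 2 shares compare regions of unlike replication. Regions bound in both states stood apart from both shares. Of 19231 regions held by all 4 p-c-JUN lists, 586 (3.05%) had neither H3K27Ac nor FOXF1, as did 26 of the 327 regions lost in senescence (7.95%). By the number of H3K27Ac lists with a peak, gained regions numbered 11445 with none, 4286 with 1, 3634 with 2, and then fell steadily to 1871 with all 6. FOXF1 followed the mark. FOXF1 peaks of Sen cells were found at 9.59% of gained regions with no H3K27Ac list, at 23.3% of those with 1 list and at 58.7% of those with all 6. Removing the 1098 regions with FOXF1 but no H3K27Ac left the 10347. The other gained regions were 11013 with H3K27Ac and no FOXF1 and 7398 with both. The FOXF1 classes rest mainly on 1 library. FOXF1 Sen replicate 2, with 40537 peaks, held 95.7% of the 1098 regions and 96.4% of the 7398. FOXF1 Sen replicate 1, with 13603 peaks, held 18.9% and 31.9%.

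**Figure D1:**
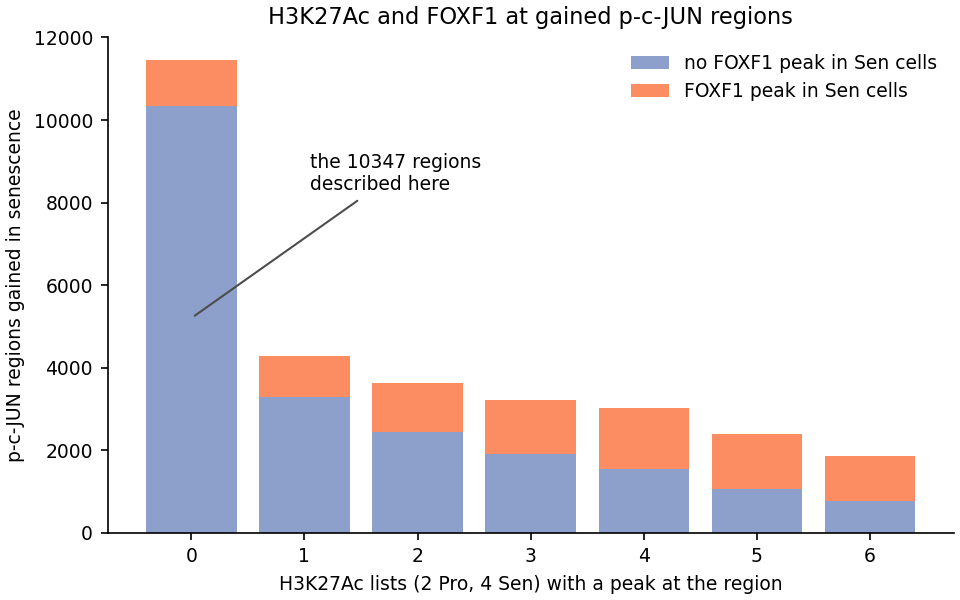
Bars count p-c-JUN regions gained in senescence (y axis) by how many of the 6 H3K27Ac lists had a peak there (x axis), split by a FOXF1 peak in Sen cells. The leftmost bar holds 11445 regions, of which 10347 had no FOXF1 peak, and the FOXF1 share grows from 9.59% to 58.7% towards the right.

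The regions were modest p-c-JUN peaks. Fold enrichment is the value the authors' peak caller gave for a summit over its local background, and is read here only within a list. Its median at the 10347 regions was 5.47 in Sen replicate 1 and 5.75 in Sen replicate 2, with 5th to 95th percentiles of 3.65 to 9.80 and 3.72 to 10.4. Ranked by −log10 q, the caller's adjusted significance, their median stood at the 38.8th and 47.0th percentile of the lists, against the 80.6th and 85.2nd for regions held by all 4 lists. Gained regions with H3K27Ac and no FOXF1 were of like strength in replicate 1 (median fold 5.46) and stronger in replicate 2 (6.10). The regions were also narrow, with a median width of 434 bp against 473 bp with H3K27Ac alone and 661 bp at regions held by all 4 lists.

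Weak peaks did not make up the whole set. All gained regions were split into quartiles by the poorer of their ranks in the Sen lists, and the share without H3K27Ac or FOXF1 was 40.7%, 37.1%, 33.6% and 27.3% from weakest to strongest. Summits of the Sen lists lay a median of 63.0 bp apart at the 10347 regions and within 50 bp at 42.7% of them, close to the 64.0 bp and 42.4% of gained regions with H3K27Ac alone.

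**Figure D2:**
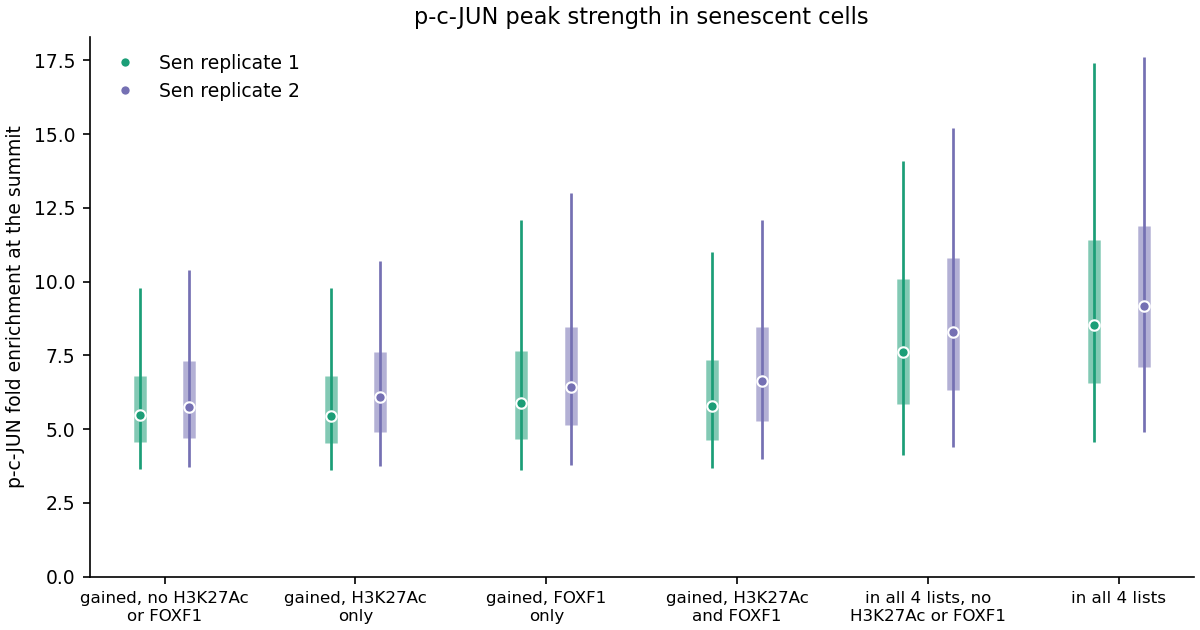
Dots give the median, thick bars the 25th to 75th and thin lines the 5th to 95th percentile of p-c-JUN fold enrichment (y axis) in each Sen replicate, for classes of regions (x axis). Gained regions without H3K27Ac or FOXF1 have medians of 5.47 and 5.75, below the 8.53 and 9.18 of regions held by all 4 lists.

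The strongest of the regions stood high in the Sen lists. The 12 that ranked best by −log10 q in whichever Sen list placed them lower are named first. Their ranks in that list ran from 318 to 2258. At chr3:43995382-43995928 (hg19, counted from 1), fold enrichment was 25.0 and 28.8 in the Sen lists and 20.7 and 22.0 in the siFOXF1/2 lists, with the nearest H3K27Ac peak 59.3 kb away. At chr6:133316556-133317006 the values were 21.7 and 27.6 in Sen and 19.2 and 18.7 after siFOXF1/2. At chr20:52677884-52678358 they were 24.2 and 18.7, then 20.8 and 23.2, and the nearest H3K27Ac peak was 24.8 kb off. All 12 had a p-c-JUN peak in both siFOXF1/2 lists.

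Others of the 12 lay at several distances from acetylated chromatin. The region chr10:45536454-45536819, 32.2 kb from H3K27Ac, had folds of 23.5 and 21.7 in Sen and 25.7 and 27.0 after siFOXF1/2. The region chr14:68608208-68608718, only 0.373 kb from H3K27Ac, had 11.5 and 10.7, then 11.5 and 10.5. Fold enrichment was 16.4 and 15.6, then 17.5 and 16.9, at chr5:123056529-123057034. It was 19.5 and 25.0, then 16.7 and 18.5, at chr6:4984985-4985376. The region chr3:194850304-194851039 had 16.2 and 17.2, then 10.9 and 13.3. Across the 12, values spanned 11.5 to 25.0 and 10.7 to 28.8 in the Sen lists and 10.9 to 25.7 and 10.5 to 27.0 in the siFOXF1/2 lists. Genes and DNA sequence at these positions were not analysed here.

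After siFOXF1/2 most of the regions still carried p-c-JUN, a readout the rule did not use. A peak was present at 7086 regions (68.5%) in siFOXF1/2 replicate 1 and at 7876 (76.1%) in replicate 2, a mean of 72.3% ± 5.40 (SD, n = 2). Both lists held 6323 regions (61.1%) and neither held 1708 (16.5%). The background was 77.4% held by both and 8.70% by neither, over all 59368 regions with a peak in both Sen lists. That set includes the 19231 regions held by all 4 p-c-JUN lists, of which both siFOXF1/2 lists held 96.4%. Over all 29856 gained regions, 62.9% were held by both and 15.5% by neither, so the shortfall was shared by gained regions in general. It went with strength. In the weakest quartile 53.3% and 63.0% of the regions had a peak after siFOXF1/2, and in the strongest 87.4% and 92.1%.

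Being chosen for a peak in both Sen lists raises a region's values there, so the siFOXF1/2 shares were also read from regions chosen on 1 Sen list. Of 15980 regions chosen on Sen replicate 1 and otherwise by the same rule, Sen replicate 2 held 66.4% and the siFOXF1/2 lists 57.0% and 63.5%. Of 26865 chosen on Sen replicate 2, Sen replicate 1 held 39.4% and the siFOXF1/2 lists 41.2% and 48.7%. In the second set the knockdown lists thus shared more of the regions than the other Sen list did, and in the first somewhat less. Both orders ran with list length, which was not matched here. Sen replicate 2 had 93443 peaks, siFOXF1/2 replicates 2 and 1 had 86110 and 75005, and Sen replicate 1 had 70177. At gained regions with both H3K27Ac and FOXF1 the gap was wider: 89.2% in the other Sen list against 60.5% and 73.0% from Sen replicate 1, and 66.5% against 49.6% and 63.0% from Sen replicate 2. With FOXF1 and no H3K27Ac the figures were 82.4% against 51.3% and 63.1%, and 55.9% against 39.3% and 49.4%. With H3K27Ac and no FOXF1 they were 79.0% against 66.0% and 73.7%, and 52.4% against 52.0% and 60.9%, so from Sen replicate 1 this gap too was wider than at regions without either. The differences between classes were not tested.

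Within quartiles of strength the regions without H3K27Ac or FOXF1 stood below those with H3K27Ac alone and above those with FOXF1 alone. In the weakest quartile, where 53.3% and 63.0% had a peak after siFOXF1/2, the shares were 54.8% and 64.7% for regions with H3K27Ac alone, 35.8% and 45.8% with FOXF1 alone, and 38.3% and 55.1% with both. In the strongest quartile the classes closed up to between 79.3% and 91.6% in replicate 1 and between 92.0% and 95.6% in replicate 2. Where a peak was called after siFOXF1/2, its median fold was 6.19 over 7086 of the 10347 regions in replicate 1 and 6.48 over 7876 in replicate 2. Regions that kept a peak were already the stronger ones in Sen cells, so these medians are not set against the Sen medians over all 10347.

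**Figure D3:**
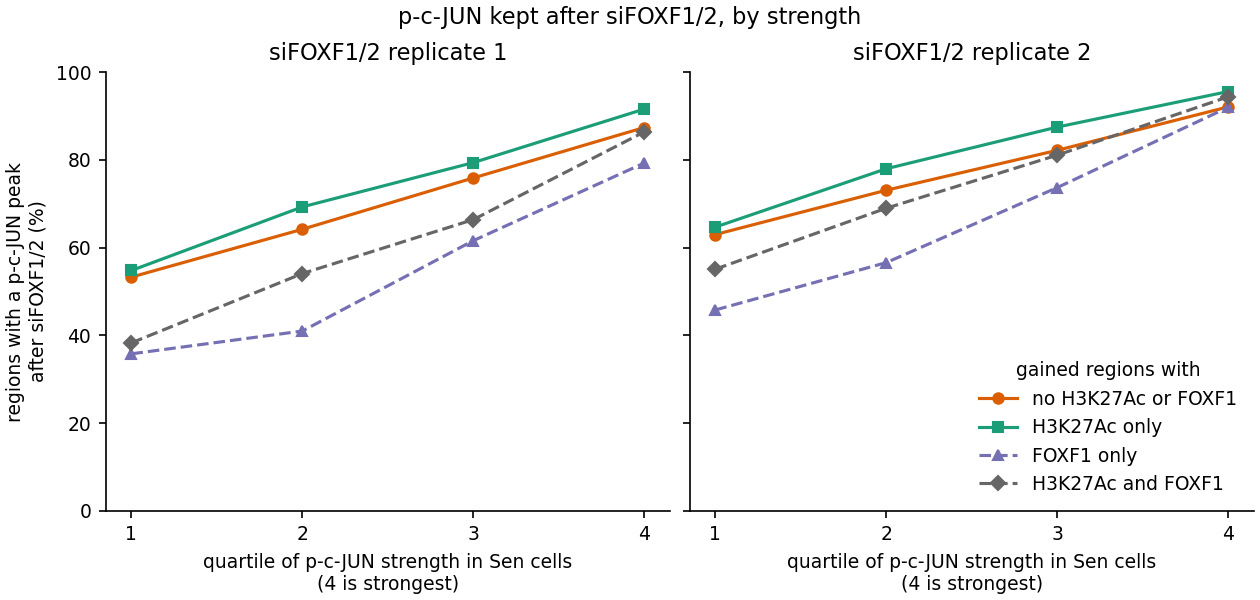
Lines give the share of gained p-c-JUN regions with a p-c-JUN peak after siFOXF1/2 (y axis, percent) by quartile of strength in Sen cells (x axis), in each siFOXF1/2 replicate, for 4 classes. Regions without H3K27Ac or FOXF1 go from 53.3% to 87.4% and from 63.0% to 92.1%, above regions with FOXF1 alone in every quartile, by only 92.1% against 92.0% in the strongest of replicate 2.

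The 1708 regions with no p-c-JUN peak in either siFOXF1/2 list were the weaker ones, with median folds of 4.64 and 5.02 in Sen cells against 5.91 and 6.23 at the 6323 held by both. The 6 strongest of them are named. At chr2:189831263-189831498 the Sen folds were 9.06 and 10.9, at chr1:45859493-45859756 they were 11.2 and 13.8, and at chr15:88256800-88257264 they were 11.4 and 17.0. The others were chr17:69243639-69243937 (11.6 and 11.1), chr12:111075868-111076129 (6.80 and 8.02) and chr17:71099845-71100450 (11.0 and 13.0). Their best worst rank in the Sen lists was 9371, behind all 12 leading regions, and none of the 6 had an H3K27Ac peak in any siFOXF1/2 or JUN knockdown list.

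H3K27Ac appeared at a minority of the regions after siFOXF1/2. Replicate 1 had a peak at 1438 (13.9%) and replicate 2 at 981 (9.48%), a mean of 11.7% ± 3.12 (SD, n = 2). Both lists had one at 553 regions (5.34%). The background was 3.30% (1160) over all 35194 p-c-JUN regions without a peak in the same H3K27Ac and FOXF1 lists, which were narrower (median 293 bp against 434 bp). That set includes the 10347 regions, which gave 553 of the 1160. It also includes 21630 regions with p-c-JUN in 1 Sen list and no Pro list. Closer classes were higher, with 7.10% of gained regions with FOXF1 and no H3K27Ac. At regions held by all 4 p-c-JUN lists without H3K27Ac or FOXF1 it was 6.48%, so the excess over the background was not particular to the 10347 regions. In the JUN knockdown lists the counts were 575 (5.56%) and 97 (0.937%), with 62 in both (0.599%, background 0.767%). List length differed, with 74484 and 29606 H3K27Ac peaks after JUN knockdown and 84673 and 71746 after siFOXF1/2. Low shares in JUN knockdown replicate 2 thus go with a short list, and a difference between the knockdowns was not tested. An H3K27Ac peak stood in at least 1 of these 4 lists at 2256 regions (21.8%) and in all 4 at 6, so the word unacetylated holds for the 6 Pro and Sen lists that chose the regions only.

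Any list that did not choose the regions will show some peaks there, so each H3K27Ac list of the rule was left out in turn and read at the regions chosen without it. The shares were 4.89% and 5.70% in the Pro lists, 10.3% and 4.32% in Sen replicates 1 and 2, and 3.25% and 1.20% in Sen replicates 3 and 4. On those same sets the siFOXF1/2 lists held 14.2% to 16.9% in replicate 1 and 9.63% to 12.1% in replicate 2. Both lay above the left-out list in 5 of the 6 sets by a wide margin, and with Sen replicate 1 left out the margin narrowed to 12.1% against 10.3%. List length bears on this. With each list limited to its 60862 best peaks, Sen replicate 1 held 4.64% against 9.60% and 9.29%, Sen replicate 2 held 4.32% against 8.23% and 7.79%, and Pro replicate 1 held 1.83% against 8.27% and 7.58%. A left-out Sen list is still matched by other Sen lists in the rule, which a siFOXF1/2 list is not. With both Pro lists left out, 9.30% and 10.1% of 12097 regions had a Pro peak and 18.0% and 12.1% a siFOXF1/2 peak. With all 4 Sen lists left out, Sen replicates 1 and 2 held 17.9% and 11.2% of 14010 regions and siFOXF1/2 23.2% and 17.7%.

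H3K27Ac peaks after siFOXF1/2 went with p-c-JUN peaks in the same condition. Of these H3K27Ac peaks, 92 (6.38%) and 59 (6.00%) also reached a Pro or Sen H3K27Ac peak outside the region. At the 6323 regions with p-c-JUN in both siFOXF1/2 lists, H3K27Ac was present at 19.2% and 13.2%. Where 1 list held p-c-JUN (2316 regions) the shares were 7.12% and 4.58%, and where neither did (1708 regions) 3.34% and 2.22%. The difference between both and neither averaged 13.5 percentage points ± 3.45 (SD over the 2 H3K27Ac libraries). The ordering was found within each quartile of p-c-JUN strength in Sen cells: in the weakest the shares ran from 3.50% and 2.66% to 20.7% and 13.6%, and in the strongest from 3.12% and 0% to 21.5% and 14.9%.

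In other H3K27Ac libraries this ordering was slight. JUN knockdown replicate 1 held 5.80% where both siFOXF1/2 lists had p-c-JUN and 4.33% where neither had. Replicate 2, a much shorter list, held 0.965% and 0.995%. Left-out Pro and Sen lists gave 1.13 to 1.66 times as many peaks where both had p-c-JUN as where neither had, against 5.10 to 6.14 times in the siFOXF1/2 lists on the same regions. For Sen replicate 1, left out, the shares were 11.1% and 8.42%, beside 23.1% and 4.13% for siFOXF1/2 replicate 1. Gained regions with H3K27Ac and no FOXF1 showed the ordering too, from 43.6% and 34.3% with p-c-JUN in neither siFOXF1/2 list to 71.4% and 60.3% with both, so it was not particular to unacetylated regions.

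**Figure D4:**
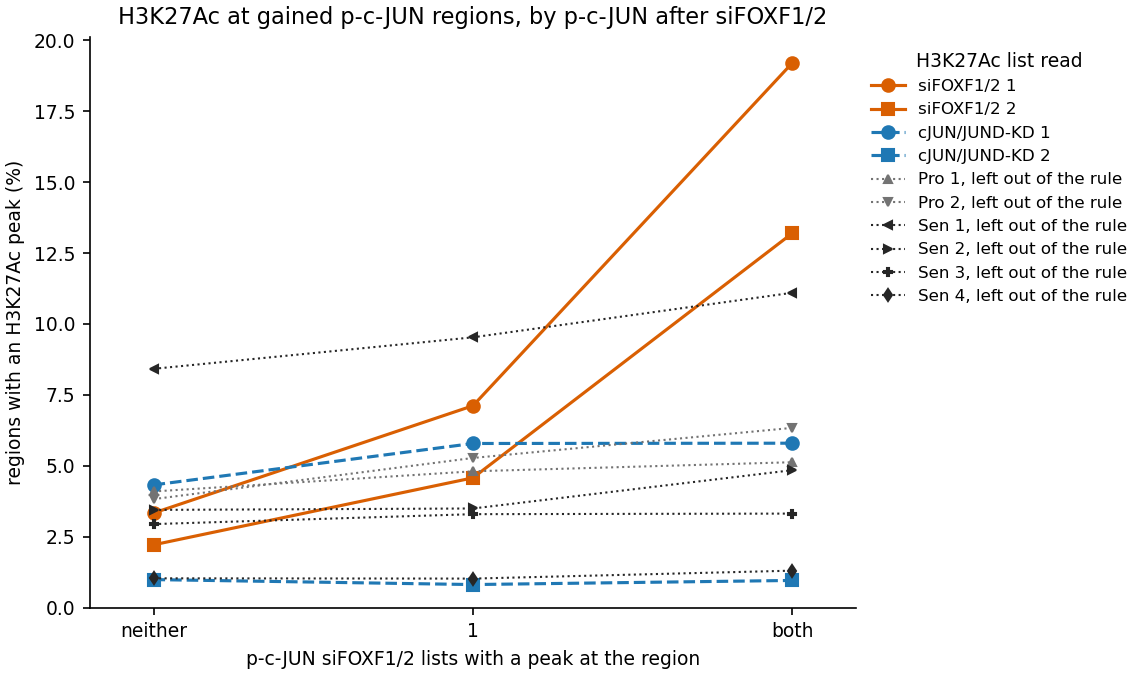
Lines give the share of regions with an H3K27Ac peak (y axis, percent) by how many p-c-JUN siFOXF1/2 lists had a peak there (x axis), for siFOXF1/2, JUN knockdown and left-out Pro and Sen libraries. The siFOXF1/2 lines climb from 3.34% and 2.22% to 19.2% and 13.2%, while every other line stays within 3 percentage points of its start.

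Region width moved with p-c-JUN as well, from a median of 374 bp where neither siFOXF1/2 list had a peak to 457 bp where both had. In a window of 400 bp around the Sen summits, one width for all, H3K27Ac was at 18.7% and 12.8% with both, and 3.34% and 2.22% with neither. Where 1 list alone had p-c-JUN, the numbering of the libraries made little difference: siFOXF1/2 replicates 1 and 2 of H3K27Ac held 7.99% and 4.98% of the 763 regions from p-c-JUN replicate 1, and 6.70% and 4.38% of the 1553 from replicate 2.

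These H3K27Ac peaks were weaker and narrower than their lists. Median fold at the regions was 3.79 and 3.91, against 3.96 and 3.98 over the whole siFOXF1/2 lists, and median width 394 and 368 bp against 528 and 473 bp. The H3K27Ac peak covered the midpoint of the Sen p-c-JUN summits at 71.8% and 68.7% of the regions that had one, against 83.5% and 77.4% at gained regions with H3K27Ac and no FOXF1 and 86.3% and 78.2% at regions held by all 4 lists. Overlap with the region was required, which favours such cover. Of 13090 peaks in siFOXF1/2 replicate 1 that overlapped no Pro or Sen H3K27Ac peak, 10.3% lay at the regions, as did 9.89% of 9357 such peaks in replicate 2. For the JUN knockdown lists the shares were 3.88% of 14141 and 2.17% of 4194. The siFOXF1/2 lists shared 553 regions, 38.5% of those in replicate 1 and 56.4% of those in replicate 2.

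The 6 strongest regions with H3K27Ac in both siFOXF1/2 lists also held p-c-JUN in both. At chr6:133316556-133317006, among the 12 leading regions above, H3K27Ac fold was 3.24 and 4.06. At chr5:52006964-52007562 it was 3.02 and 3.77, beside p-c-JUN folds of 11.9 and 15.2 in Sen and 13.6 and 14.4 after siFOXF1/2. At chr11:127888738-127889114, 6.31 kb from any Pro or Sen H3K27Ac peak, it was 3.50 and 3.46. The others were chr13:31005466-31005911 (3.45 and 4.62), chr1:169464352-169464973 (3.74 and 3.53) and chr1:101334095-101334683 (3.26 and 3.20). Of the 6, the chr13 region alone had a peak after JUN knockdown, with a fold of 4.29 in replicate 1.

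Among the 62 regions with H3K27Ac in both JUN knockdown lists, the 4 strongest were named. At chr16:65879772-65880317 the H3K27Ac fold was 4.97 and 6.64, with none after siFOXF1/2. At chr9:95844193-95844509 it was 4.33 and 4.70, at chr1:167105330-167106111 it was 5.46 and 3.58, and at chr6:147343205-147343607 it was 3.98 and 3.93. The last 3 also had a peak in siFOXF1/2 replicate 1, with folds of 3.33, 4.99 and 3.05.

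Lists of the sip300/CBP experiment, with 1549 to 8234 peaks, reached very few of the regions. Control libraries had an H3K27Ac peak at 43 (0.416%) and 8 (0.0773%), and knockdown libraries at 6 (0.0580%) and 4 (0.0387%). The difference of −0.198 percentage points was within the spread of the controls, 0.246% ± 0.239 (SD, n = 2), and an exact two-sided permutation test gave p = 0.333, the smallest that 2 against 2 libraries allow. Shares this low cannot show a change at these list lengths.

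Few of the regions had FOXF1 in the FOXF1 lists outside the rule, which were short. FOXF1 Pro lists had a peak at 1 and 9 of the 10347 regions, JUN knockdown lists at 2 and 0, and siFOXF1/2 lists at 0 and 0, which made 11 regions in all. The rule itself asked for no FOXF1 in Sen cells and no H3K27Ac. Over all 35194 p-c-JUN regions that met this part of the rule, the Pro lists reached 0.0455% and 0.170%. At the 10347 regions the Pro shares were 0.00966% and 0.0870%. Over all 106528 p-c-JUN regions, which include those with FOXF1 in Sen cells, the Pro lists reached 2.90% and 8.67%. There the JUN knockdown lists reached 0.258% and 0.619% and the siFOXF1/2 lists 0.0995% and 0.0835%. The last 4 lists, with 133 to 883 peaks, could thus reach few regions of any kind. The 4 strongest were weak p-c-JUN peaks. At chr1:117684803-117685241 the Sen folds were 4.44 and 4.84, at chr2:92300707-92301038 4.73 and 4.63, at chrX:106871163-106871739 4.30 and 6.65, and at chr1:196264876-196265168 5.90 and 5.13. The nearest FOXF1 peak of Sen cells was a median of 17.0 kb from the regions, against 11.8 kb for gained regions with H3K27Ac alone.

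The regions lay about as far from acetylated chromatin as all p-c-JUN regions without H3K27Ac or FOXF1, a set that includes them. The nearest H3K27Ac peak of Pro or Sen cells was a median of 5.82 kb away, within 1 kb for 1389 regions (13.4%), within 10 kb for 63.5% and beyond 100 kb for 351 (3.39%). Over all 35194 p-c-JUN regions without H3K27Ac or FOXF1 the median was 5.80 kb, with 15.3% within 1 kb and 63.5% within 10 kb. Regions held by all 4 p-c-JUN lists without H3K27Ac or FOXF1 lay closer, at a median of 2.60 kb. The nearest p-c-JUN region held by all 4 lists was a median of 41.4 kb away, against 27.7 kb for gained regions with H3K27Ac alone. At the border of the rule, 196 regions ended within 100 bp of an H3K27Ac peak and had median folds of 5.23 and 5.48, while 310 gained regions left out for an overlap of at most 100 bp had 5.07 and 5.43. On the p-c-JUN side, the 1168 otherwise equal regions with a peak in both Sen lists and 1 Pro list had 6.51 and 6.90, and the 21630 with 1 Sen list and no Pro list had 4.40 and 4.41.

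Distance went with H3K27Ac after siFOXF1/2 but hardly with p-c-JUN. Within 1 kb of an H3K27Ac peak of Pro or Sen cells, 21.0% and 13.2% of the regions had H3K27Ac after siFOXF1/2, from 10 to 100 kb 9.64% and 7.01%, and beyond 100 kb 5.98% and 3.70%. In JUN knockdown replicate 1 the same steps gave 8.57%, 4.73% and 1.42%. In replicate 2, a much shorter list, they gave 1.22%, 1.02% and 0.855%, with no clear fall at shares this low. Peaks of p-c-JUN after siFOXF1/2 stood at 65.6% and 72.4% of the regions within 1 kb and at 71.5% and 75.5% of those beyond 100 kb. The 351 farthest regions also had p-c-JUN folds like the rest, with medians of 5.55 and 5.66 in the Sen lists.

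**Figure D5:**
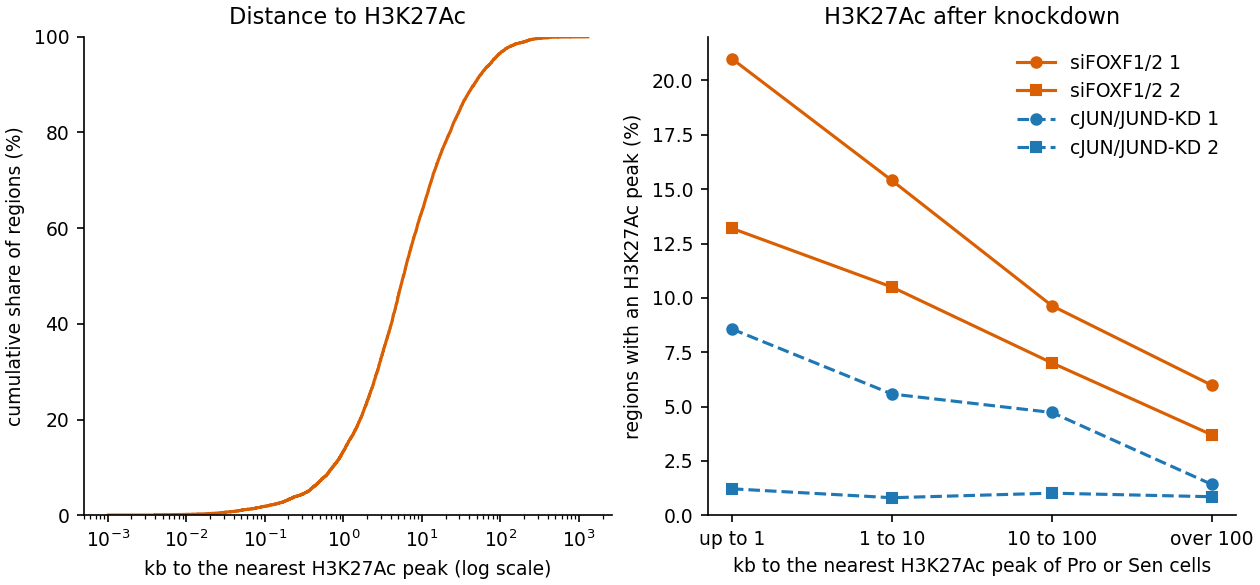
The left panel gives the cumulative share of the 10347 regions (y axis, percent) by distance to the nearest Pro or Sen H3K27Ac peak (x axis, kb, log scale), and the right panel the share with an H3K27Ac peak after knockdown by that distance. The median distance is 5.82 kb, and the siFOXF1/2 lines fall from 21.0% and 13.2% within 1 kb to 5.98% and 3.70% beyond 100 kb.

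The regions were spread over the genome. Their share of gained regions ran from 32.4% on chromosome 7 to 40.6% on chromosome X, and neighbours on a chromosome were a median of 129 kb apart. Over 2715 tiles of 1 Mb with any p-c-JUN region, the number of the regions and of gained regions with H3K27Ac correlated at Pearson 0.58 and Spearman 0.63. This is across tiles of the same lists, which share library and mappability, and tiles are not replicates. The fullest tile, on chromosome 8, held 17. The next held 15 at chr2:12000001-13000000, chr10:62000001-63000000 and chr15:70000001-71000000, beside 14, 10 and 14 gained regions with H3K27Ac, and chr2:145000001-146000000 held 14 beside 9. On the chromosome 10 tile p-c-JUN was found after siFOXF1/2 at 12 and 15 of the 15 regions.

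Runs of such regions with no H3K27Ac peak between them were short. Of the regions, 7758 stood alone, 1824 (17.6%) came as pairs, and the longest run had 7. It spanned 657 kb at chr7:131801910-132458915, with folds of 3.70 to 9.43 and 4.22 to 6.96 in the Sen lists, and p-c-JUN after siFOXF1/2 at 4 and 6 of its regions. There were 4 runs of 6. The run at chr5:90739587-91146243 kept p-c-JUN at all 6 regions in both siFOXF1/2 lists and gained H3K27Ac at none. The run at chr3:43960511-44240589, which includes the strongest region of all, kept it at 6 and 5 and also had no H3K27Ac. At chr4:152729598-152954460 p-c-JUN was found at 4 and 6 regions and H3K27Ac at 2 and 1, and at chr6:137266393-137477497 p-c-JUN was found at 3 and 4 and H3K27Ac at none.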

How the data were processed

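Per the submitters' processing notes, the tools were MACS2 3.0.0, Bowtie2 2.3.4.1, deepTools 3.1.1 and SAMtools 1.9, with build hg19; parameters, controls and the use of the yeast spike-in are not given in the sources used here. The deposited files were 28 narrowPeak lists, 1 per library with none pooled. Each deposited peak had a display score (not used further), a fold enrichment, −log10 values of p and q, and a summit offset, as the authors' caller wrote them. Depth is unknown, so list lengths were not corrected, and no list was identical to another.

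Groups came from sample titles. Peaks outside chromosomes 1 to 22 and X (475 of 1123812) were left out, regions were joined and read by an overlap of 1 bp, and coordinates are counted from 1. The regions, their classes and the readouts were chosen with earlier results of these data known. The regions named are, by worst rank of −log10 q in the Sen lists, the 12 best, the 6 best without p-c-JUN after siFOXF1/2, the 6 and 4 best with H3K27Ac in both siFOXF1/2 or JUN knockdown lists, the 4 best with FOXF1 elsewhere, and the fullest tiles and longest runs. Left-out H3K27Ac lists, strata by p-c-JUN, strength and distance, equal H3K27Ac list lengths and fixed windows were added after seeing the data. On 3000 simulated sites, 948 planted regions were recovered at 100% with 0 false ones, which tested the code only. Sequence, motifs, genes and marker lists were not analysed, as they need an hg19 genome and annotation. Python 3.11.15, numpy 2.4.6, pandas 2.3.3, scipy 1.17.1 and matplotlib 3.10.9 were used.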

Additional observations from a re-analysis of the deposited data

How the results depend on the processing

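The number of regions stayed between 8871 and 11535 in 13 of 17 alternatives. It was 5512 with p-c-JUN peaks at −log10 q of 5 or more, and 948 with the Pro and Sen p-c-JUN lists cut to equal length. With 1 library left out it ranged from 10394 to 26865, the top being without p-c-JUN Sen replicate 1 (15980 without replicate 2). The share with p-c-JUN after siFOXF1/2 was 94.1% at this equal length of the Pro and Sen lists. The siFOXF1/2 lists were then still read at their full 75005 and 86110 peaks, so 94.1% is not a share between lists of like length. With 1 library left out the share ranged from 45.0% to 76.1% (45.0% and 60.3% without p-c-JUN Sen replicate 1 or 2). The share with H3K27Ac after siFOXF1/2 was 18.7% at equal length and ranged from 7.79% (without p-c-JUN Sen replicate 1) to 14.5% with 1 library left out. The gap in H3K27Ac between regions with p-c-JUN in both and in neither siFOXF1/2 list was 20.4 percentage points at equal length, where only 24 regions had p-c-JUN in neither, and 10.2 to 16.3 in the other 20 alternatives. These alternatives for the gap were chosen after seeing the data. Fewer peaks per list, or fewer lists that must agree, change the regions by construction. The sip300/CBP difference kept its sign in all 22 alternatives, from −0.367 to −0.0290 percentage points. With the replicate number as a block it was −0.198 (exact paired permutation p = 0.5, the smallest possible with 2 pairs). Deviations of same-numbered libraries correlated at 0.032 over all 106528 joined p-c-JUN regions, and the labels state no pairing. The motif share and its alternatives were not run, for want of an hg19 genome.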
